A study of Mus musculus with 24 samples.

Results

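The subject is the set of genes in mouse nuclear DNA that code for subunits of the 5 respiratory chain complexes, followed through liver and kidney of C57BL/6 mice. Members were taken by gene symbol: the Ndufa, Ndufb, Ndufc, Ndufs and Ndufv genes with a number, the 4 Sdh genes of complex II, the Uqcr genes, the Cox genes numbered 4 to 8 and the Atp5 genes, each with protein_coding among the transcript types listed for it. The rule gave 86 of the 33272 genes in the table, of which 38 belong to complex I, 4 to complex II, 8 to complex III, 19 to complex IV and 17 to complex V. None lies on the mitochondrial chromosome. A further 14 symbol matches without a coding transcript type are no members, and 24 of the 86 list protein_coding as their only type. The symbols place Ndufa4 with complex I although its protein is a subunit of complex IV, and Cox7a2l, a supercomplex factor, with complex IV. Cox5b-ps and Ndufb1-ps carry pseudogene symbols, so their reads may be shared with near-identical copies.

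Each organ was taken from 4 arms: CBLB502 followed by cisplatin (called the combination), cisplatin alone, CBLB502 alone, and no treatment. Cisplatin, a platinum drug that crosslinks DNA and injures kidney tubules, was given intraperitoneally at 20 mg/kg. The dose of CBLB502, which is derived from bacterial flagellin and activates TLR5, was 0.2 mg/kg by the same route, and in the combination it preceded cisplatin by 30 min. Treated organs were collected at 72 h, while the labels give the untreated controls no time and no vehicle. Every group has 3 libraries, 24 in all, and the labels name no allele. Treated kidney libraries carry the numbers 4 to 6 of the deposited table, which are not in the labels. Sex and age are not given, nor is any statement that libraries of a group come from separate animals, and the spread behind every p-value here is that between libraries, which may be technical.

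The respiratory chain passes electrons from NADH (complex I) and succinate (complex II) through ubiquinone, complex III and cytochrome c to oxygen at complex IV, and the proton gradient made on the way drives ATP synthesis by complex V. A few core subunits of complexes I, III, IV and V are made inside mitochondria from mitochondrial DNA, while the others, and all of complex II, are nuclear genes whose proteins are imported. Reabsorption in the proximal tubule makes the kidney one of the organs richest in mitochondria, and cisplatin is known to accumulate in and damage that segment.

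Nuclear subunit genes are textbook targets of the transcription factors NRF1, YY1 and the ETS family member GABP. RefSeq promoter windows on build GRCm38.p6, reaching from 250 bases before to 50 bases after the start, were found for 68 of the 86 members. The NRF1 motif (GCGCA, any base, then GCGC) was present on either strand in 16 of these 68 windows (23.5%), against 4.78% of windows over 27025 symbols and 6.6% over 17492 coding genes. The YY1 motif AAGATGGC was in 9 windows (13.2%), against 2.88% of all windows and 3.22% of coding ones, and the ETS motif CCGGAAGT in 5 (7.35%), against 4% and 5.29%. At least 1 of the 3 motifs was in 28 windows (41.2%), against 10.8% of all windows and 14% of coding ones. The 5 sequences printed here are the 120 bases before the RefSeq start of 5 members, with NRF1 or ETS matches in capitals. These members were picked by hand, so the printed windows do not show how common matches are. Ndufb8 and Ndufb4 had the highest fold changes of complex I with the combination, Uqcr11 and Ndufs6 each hold 1 match within the printed bases, and Sdha, lower with cisplatin, holds 3 NRF1 matches there. Ndufb4 holds 2 of its 3 NRF1 matches there, and Ndufb8 and Ndufs6 each have a YY1 match after the start, outside the printed bases. The printed windows lie on the minus strand at chr19:44555443-44555562 (Ndufb8), chr16:37654369-37654488 (Ndufb4), chr10:80406822-80406941 (Uqcr11), chr13:73328483-73328602 (Ndufs6) and chr13:74350241-74350360 (Sdha). By the deposited gene coordinates the start falls within the window for Ndufb4 (37654453), Uqcr11 (80406830) and Sdha (74350280), so part of those bases lies inside the gene.
Ndufb8: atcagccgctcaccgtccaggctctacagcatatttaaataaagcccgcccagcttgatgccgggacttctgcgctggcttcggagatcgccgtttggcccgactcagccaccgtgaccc
Ndufb4: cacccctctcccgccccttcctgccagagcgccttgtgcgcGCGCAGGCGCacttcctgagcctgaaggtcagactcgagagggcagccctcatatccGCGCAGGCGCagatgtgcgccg
Uqcr11: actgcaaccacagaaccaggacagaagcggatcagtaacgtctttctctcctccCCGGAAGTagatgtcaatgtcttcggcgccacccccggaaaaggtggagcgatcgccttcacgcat
Ndufs6: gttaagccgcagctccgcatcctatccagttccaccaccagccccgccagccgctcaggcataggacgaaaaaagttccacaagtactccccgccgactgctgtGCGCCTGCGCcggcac
Sdha: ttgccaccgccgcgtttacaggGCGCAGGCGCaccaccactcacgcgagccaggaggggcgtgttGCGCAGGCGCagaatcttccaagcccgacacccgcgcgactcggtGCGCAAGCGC
A match is a description of these letters, not an occupied site. Members with an NRF1 match had a median log2 fold change of 1.13 in kidney for the combination over CBLB502 (n = 16), and members without one had 1.19 (n = 51). For cisplatin over CBLB502 the medians were 0.98 with a match and 1.10 without.

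Libraries held 40.6 to 77.5 M counts (M for 1e+06). Counts on the mitochondrial chromosome made up 2.57% to 14.2% of treated libraries, but 60.7% to 69.0% of kidney control and 69.3% to 72.2% of liver control libraries, whose remaining counts were 11.4 to 20.8 M. Of all control counts, a further 19.8% to 21.9% fell on 7 mitochondrial-like genes of chromosome 1, which stayed in the totals. Without these genes too, liver controls held 2.82 to 4.65 M counts and kidney controls 5.05 to 10.1 M. Levels are counts per M (CPM) of the counts off the mitochondrial chromosome, scaled by TMM within an organ unless a common scale over both organs is named. The treated arms and the control thus differ in mitochondrial share as well as in treatment, and these cannot be told apart, so the treated arms were first compared with each other, with CBLB502 as the reference. Total counts also followed the arm (53.5 to 58.3 M with CBLB502, 70.1 to 77.5 M with cisplatin or the combination), and depth and arm cannot be told apart. The labelled organs matched their defining markers: the tubular phosphate carrier Slc34a1 was at 527 to 5231 CPM in kidney and at most 9.81 CPM in liver, and albumin (Alb) at 9910 CPM or more in liver and at most 198 CPM in kidney. Of the 86 members, 84 passed the low-count filter in kidney and 81 in liver. Cox7b2 had 6 counts and Cox8c 22 counts over all 24 libraries, and neither was tested.

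In kidney, nuclear respiratory chain transcripts were higher after cisplatin, with or without CBLB502, than after CBLB502 alone. Summed over members, the level was 36462, 37509 and 35810 CPM in combination kidneys, 30843, 38201 and 30774 CPM in cisplatin kidneys, and 16194, 15868 and 19487 CPM in CBLB502 kidneys. No library of either cisplatin-containing arm overlapped a CBLB502 library. The ratio of means was 2.13 for the combination over CBLB502 and 1.94 for cisplatin over CBLB502, and an exact permutation test gave p = 0.1 for each, the smallest p that 3 against 3 libraries allow. By complex, the combination stood at 2.49 times CBLB502 in complex I, 1.52 times in complex II, 2.32 times in complex III, 2.48 times in complex IV and 1.81 times in complex V. Cisplatin stood at 2.21, 1.27, 2.15, 2.42 and 1.62 times CBLB502 in the same order of complexes. As a share of counts off the mitochondrial chromosome and off 7 mitochondrial-like genes of chromosome 1, the members took 3.85% to 4.10% in combination kidneys, 2.95% to 3.72% in cisplatin kidneys and 2.43% to 2.71% in CBLB502 kidneys.

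**Figure D1:**
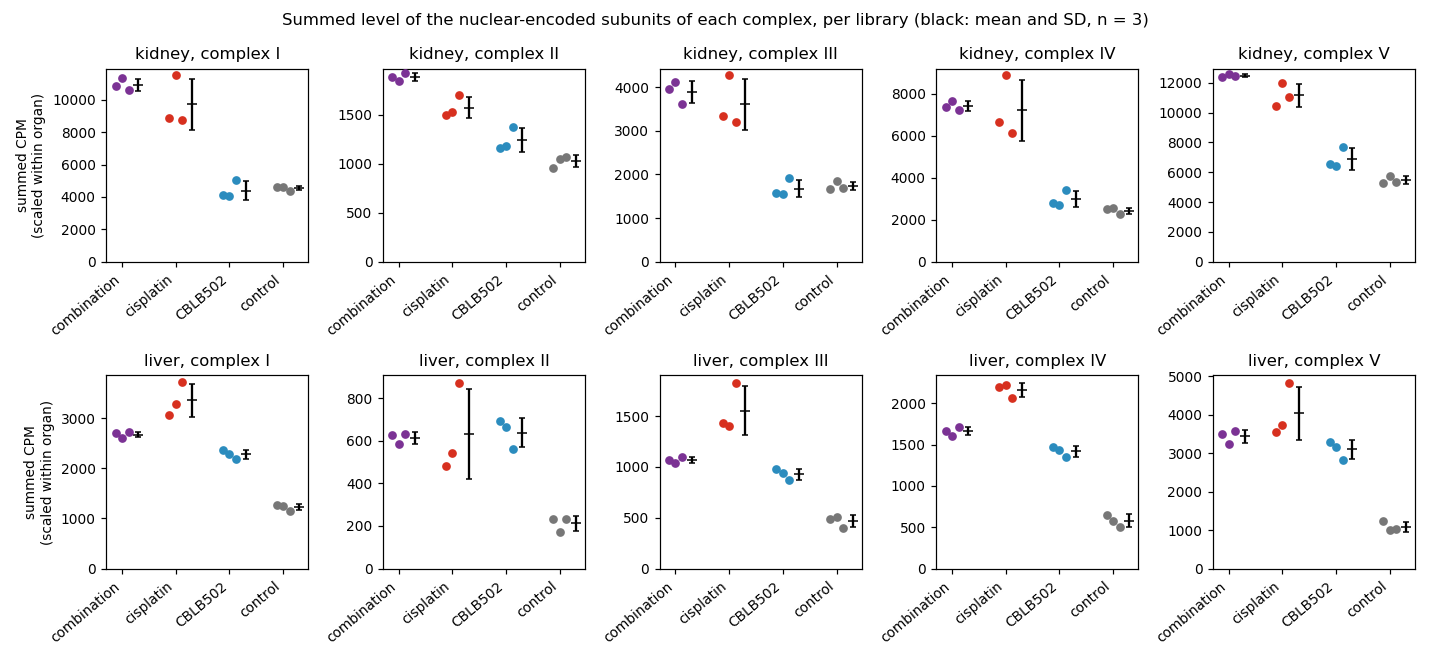
Summed CPM of the members by complex (panels across) in kidney and liver (rows), with 1 point per library in the combination, cisplatin, CBLB502 and control arms, and the mean ± SD in black (n = 3). In kidney the combination and cisplatin points sit above those of CBLB502 in all 5 complexes, least in complex II, while in liver the arms lie closer together apart from the control.

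Gene by gene, 74 of the 84 tested members were higher and none lower in combination kidneys than in CBLB502 kidneys by edgeR's quasi-likelihood test at an adjusted p under 0.05, where 14.4% of all tested genes were higher and 8.63% lower. For cisplatin over CBLB502, 71 members were higher and 2 lower, against 18% of all genes higher and 9.79% lower. The median member stood 1.13 log2 units above CBLB502 with the combination (2.19-fold) and 1.02 with cisplatin (2.03-fold), while the medians of all genes were -0.02 and -0.05. These comparisons share the CBLB502 libraries. Without TMM the medians of all genes shifted to -0.44 and -0.52 and those of members to 0.71 and 0.54, and the calls fell to 41 with the combination and to 30 with cisplatin (28 higher and 2 lower). On that scale 5.35% of all genes were higher and 13% lower with the combination, and 6.64% higher and 15% lower with cisplatin. Among the 24 members with protein_coding as their only listed type, 22 were tested, of which 19 were higher with the combination and 18 with cisplatin.

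In complex I, 36 of 38 members rose with the combination and 35 rose with cisplatin, 1 falling. Ndufb8, an accessory subunit of the membrane arm, had the highest fold change of the complex. It stood at 947, 1243 and 904 CPM in combination kidneys, at 956, 1238 and 786 CPM in cisplatin kidneys, and at 198, 181 and 208 CPM in CBLB502 kidneys. Both cisplatin-containing arms lay far above every CBLB502 library, with log2 fold changes of 2.40 ± 0.20 (SE; edgeR adjusted p = 7.35e-05) for the combination and 2.35 ± 0.20 (adjusted p = 0.000264) for cisplatin. Ndufb4, also an accessory membrane-arm subunit, reached 408, 492 and 396 CPM with the combination and 307, 442 and 329 CPM with cisplatin, against 93.3, 92.9 and 114 CPM with CBLB502. Neither arm overlapped CBLB502, and the differences were 2.11 ± 0.19 (edgeR adjusted p = 8.44e-05) and 1.84 ± 0.19 (adjusted p = 0.00029). Ndufa7, an accessory subunit, stood at 259, 303 and 243 CPM with the combination and 260, 370 and 202 CPM with cisplatin, against 60.5, 58.5 and 75.5 CPM with CBLB502, again without overlap. Ndufs6, an accessory subunit next to the NADH-oxidising end, had log2 fold changes of 1.42 with the combination and 1.24 with cisplatin.

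Among core subunits that carry redox centres, Ndufv1, Ndufv2, Ndufs7 and Ndufs8 rose with the combination and Ndufs1 did not. Ndufv1, which binds the flavin that takes electrons from NADH, was at 545, 522 and 545 CPM with the combination and 439, 481 and 426 CPM with cisplatin, against 225, 231 and 286 CPM with CBLB502. Its log2 fold changes were 1.12 ± 0.14 (edgeR adjusted p = 0.000317) and 0.86 ± 0.14 (adjusted p = 0.00131), with no overlap. At the low end of the called members with the combination were Ndufa10 at 0.79 ± 0.14 and Ndufv3 at 0.79 ± 0.19, both accessory, and with cisplatin Ndufb5, an accessory membrane-arm subunit, at 0.52 ± 0.14.

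Ndufs1, the iron-sulphur subunit that receives electrons from the flavin end, went the other way with cisplatin. It stood at 171, 141 and 159 CPM with the combination and at 102, 74.7 and 179 CPM with cisplatin, against 202, 206 and 220 CPM with CBLB502. All 6 libraries were below the lowest CBLB502 library, and the cisplatin libraries were far apart. The log2 fold change was -0.82 ± 0.25 for cisplatin (edgeR adjusted p = 0.0321) and -0.41 ± 0.25 for the combination (adjusted p = 0.264). The cisplatin call was lost with only these 2 groups fitted (adjusted p = 0.11) and on leaving out any single library of these groups other than cisplatin library 6, without which the value was -1.24. Ndufa4l2, a paralogue of Ndufa4, was near the detection limit, at 0.397, 1.54 and 0.838 CPM with the combination and 0.442, 0.144 and 2.49 CPM with cisplatin, against 3.61, 3.35 and 2.59 CPM with CBLB502. Ndufa4l2 was not called, at -1.78 and -1.62 on the log2 scale, and Ndufa4 itself rose by 1.19 with the combination and 1.10 with cisplatin.

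Complex II, which also belongs to the tricarboxylic acid cycle, was split by subunit. Sdhb, the iron-sulphur subunit, reached 644, 735 and 679 CPM with the combination and 514, 595 and 533 CPM with cisplatin, against 206, 208 and 254 CPM with CBLB502, which gave 1.62 ± 0.15 (edgeR adjusted p = 9.02e-05) and 1.30 ± 0.15 (adjusted p = 0.00037) on the log2 scale. The membrane anchors Sdhc and Sdhd rose by 0.69 and 0.73 with the combination and by 0.52 each with cisplatin. Sdha, the flavoprotein that oxidises succinate, stood at 500, 432 and 506 CPM with the combination and 359, 318 and 501 CPM with cisplatin, against 557, 558 and 623 CPM with CBLB502. Both arms lay below CBLB502 without overlap. Cisplatin was called lower at -0.56 ± 0.18 (edgeR adjusted p = 0.0341), and the combination, at -0.27 ± 0.18 (adjusted p = 0.294), was not. As with Ndufs1, the cisplatin call was lost with only these 2 groups fitted (adjusted p = 0.117) and on leaving out any library of these groups but cisplatin library 6, without which it was -0.78.

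In complex III, 6 of 8 members rose with the combination and 5 with cisplatin, and the highest values were those of small subunits. Uqcr10, a small transmembrane subunit, was at 666, 774 and 560 CPM with the combination and 610, 806 and 521 CPM with cisplatin, against 161, 138 and 182 CPM with CBLB502. Both arms were clear of CBLB502, at 2.05 ± 0.20 (edgeR adjusted p = 0.000109) and 2.01 ± 0.20 (adjusted p = 0.00029). Uqcrq, another small membrane subunit, had 2.03 and 2.11, Uqcr11 had 1.92 and 1.79, and Uqcrh, the hinge protein beside cytochrome c1, had 1.43 and 1.27. The core protein Uqcrc1 rose by 1.06 and 0.90. Uqcrfs1, the Rieske iron-sulphur protein, rose with the combination (0.67 ± 0.14) and was not called with cisplatin (0.38 ± 0.14, edgeR adjusted p = 0.0664). The core protein Uqcrc2 (0.46 and 0.32) and the ubiquinone-binding Uqcrb (0.37 and 0.25) were not called in either comparison.

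In complex IV, 14 of the 17 tested members rose in each comparison. Cox4i1, the widely expressed form of the regulatory subunit 4 and the member with the highest level per kilobase in combination kidneys, stood at 2113, 2450 and 2057 CPM with the combination and 2041, 2838 and 1746 CPM with cisplatin, against 593, 529 and 696 CPM with CBLB502. No libraries overlapped with CBLB502, and the log2 fold changes were 1.86 ± 0.20 (edgeR adjusted p = 0.000146) and 1.87 ± 0.20 (adjusted p = 0.000311). Cox5a, a matrix-side subunit, was at the low end of the called members at 0.84 ± 0.12 and 0.75 ± 0.12, next to Cox5b at 0.91 and 0.85. Cox6b2, a form known from testis, had the largest change of any member. It was at 108, 63.1 and 96.2 CPM with the combination and 56.0, 96.8 and 47.3 CPM with cisplatin, against 5.39, 4.40 and 8.60 CPM with CBLB502, which gave 3.86 ± 0.35 (edgeR adjusted p = 9.02e-05) and 3.44 ± 0.34 (adjusted p = 0.00029).

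In complex V, 15 of 17 members rose with the combination and 14 with cisplatin, and the head subunits Atp5a1 and Atp5b were not called in either comparison. Atp5e, the epsilon subunit of the central stalk, reached 583, 596 and 508 CPM with the combination and 347, 865 and 353 CPM with cisplatin, against 125, 121 and 184 CPM with CBLB502. Neither arm overlapped CBLB502, though the cisplatin libraries spread widely, and the log2 fold changes were 1.97 ± 0.32 (edgeR adjusted p = 0.0013) and 1.86 ± 0.32 (adjusted p = 0.00166). Atp5md, a small membrane subunit, had 1.87 and 1.84. Atp5a1, the alpha subunit of the head, stood at 1886, 1810 and 2000 CPM with the combination and 1508, 1407 and 1793 CPM with cisplatin, against 1437, 1397 and 1620 CPM with CBLB502. The cisplatin and CBLB502 libraries overlapped, and neither value was called (0.35 ± 0.15, edgeR adjusted p = 0.115, and 0.08 ± 0.15, adjusted p = 0.731). Atp5b, the catalytic beta subunit, was not called either, at 0.45 ± 0.16 and 0.35 ± 0.16. Of the 3 genes for the rotor's c subunit, Atp5g1 rose by 0.98 and 0.58 and Atp5g2 by 0.82 and 0.89, while Atp5g3 rose by 0.76 with the combination and was not called with cisplatin (0.49). Atp5pb, the b subunit of the outer stalk, had the smallest called change with cisplatin at 0.56 ± 0.13.

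**Figure D2:**
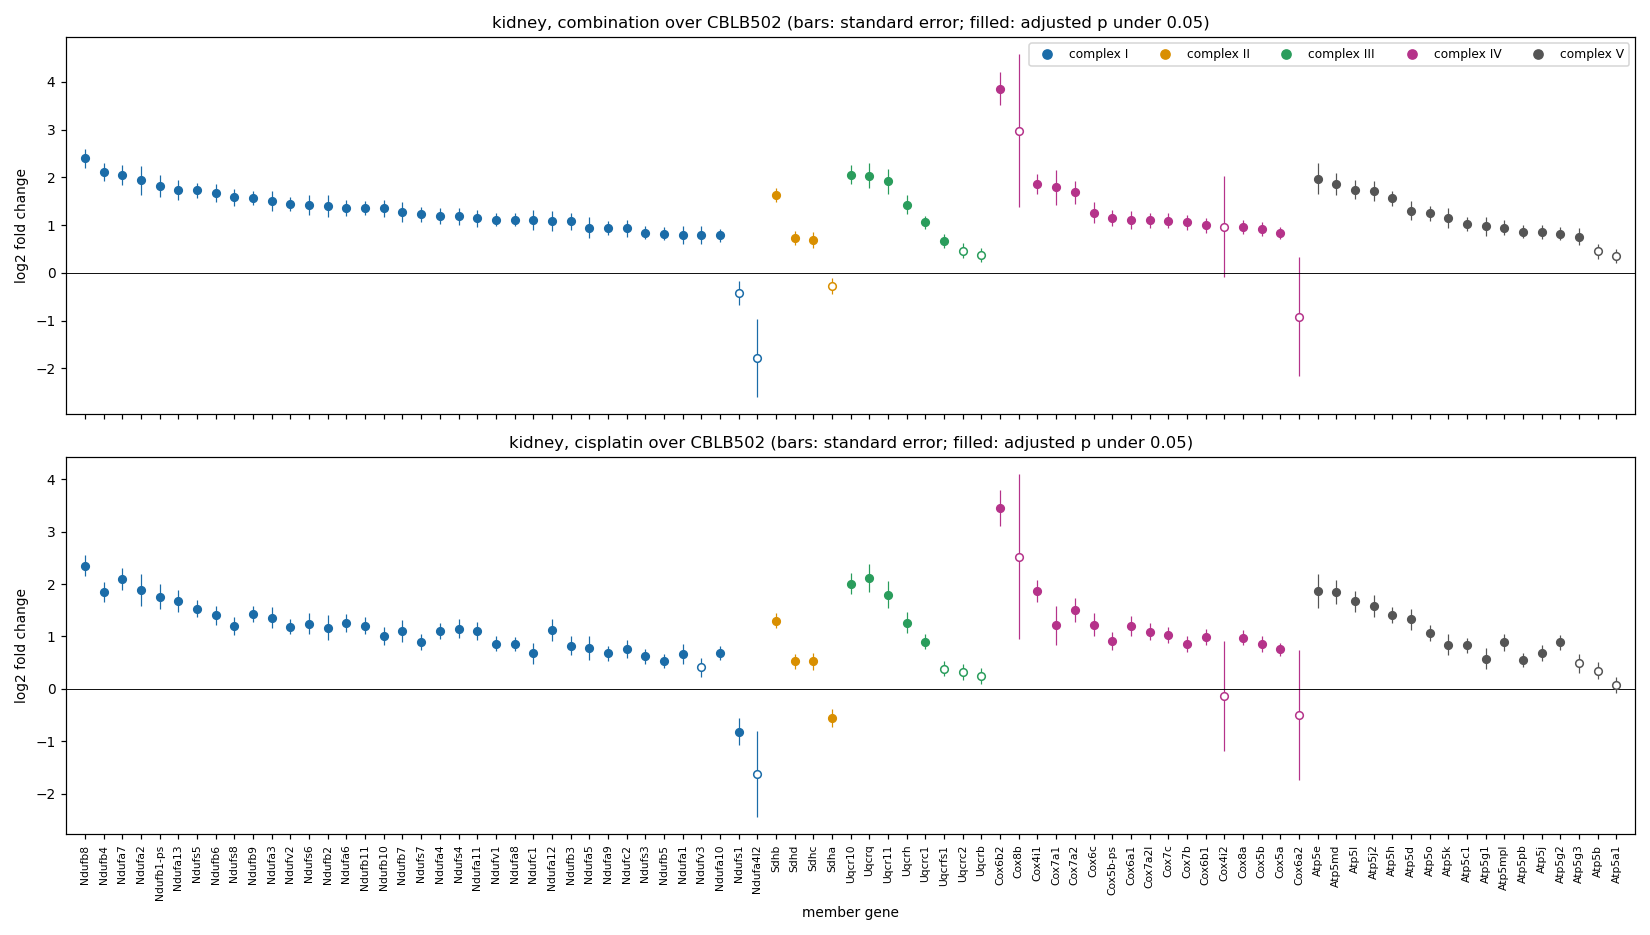
Log2 fold change ± SE of 83 of the 84 tested members in kidney, grouped by complex, for the combination over CBLB502 (top) and cisplatin over CBLB502 (bottom), with filled points for an edgeR adjusted p under 0.05. Nearly all points lie above 0, Cox6b2 is the highest in both, and Ndufs1 and Sdha are filled below 0 with cisplatin.

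Most members have short transcripts, with a median of 765 bases for the principal mRNA, and in kidney the difference from CBLB502 ran with transcript length in members and in all genes alike. Across 83 members with a length, Spearman's rho between mRNA length and log2 fold change was -0.38 for the combination and -0.41 for cisplatin, and across 16026 genes it was -0.41 and -0.33. These are descriptions across genes of the same libraries, and genes are not independent replicates. With the combination, the 8 members of up to 500 bases had a median of 1.85 against 0.82 for all 122 such genes, and the 43 members of 501 to 1000 bases had 1.25 against 0.85. The 24 members of 1001 to 2000 bases had 1.06 against 0.43, and the 8 over 2000 bases had 0.74 against -0.23. Among these 8, Ndufb2, Sdhc, Atp5g1 and Atp5md have coding parts of 315, 507, 408 and 174 bases. Their assigned mRNAs have 4371, 3171, 4715 and 2733 bases. Of the others, with longer coding parts, Ndufa10 rose and Ndufs1, Sdha and Atp5a1 were not called. With cisplatin, the medians of the 3 longer bins in the same order were 1.10, 0.85 and 0.55 for members and 0.80, 0.37 and -0.25 for all genes. Ndufs1 and Sdha, the 2 members called lower with cisplatin, lie in the last bin, where 14.9% of all genes were lower. By assigned length, the member median stood above that of all genes in each of these bins. In the bin that holds most members, 39 of 43 rose with the combination against 44.2% of its genes, and 38 of 43 with cisplatin against 45.3%. When a length trend estimated in each library was removed, an alternative chosen after the trend was seen, 41 members were still called with the combination, all higher, and 38 with cisplatin, 35 higher and 3 lower. The share of all genes called on that setting is not given here, so these counts stand without that comparison. The member medians on that scale were 0.45 and 0.29, and Cox5a, at -0.05 and -0.12, turned negative. So did Atp5g2 (-0.032) and Atp5g3 (-0.089) with the combination, and Ndufb5 (-0.13) and Sdhd (-0.05) with cisplatin. What made length run with the arm was not tested.

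**Figure D3:**
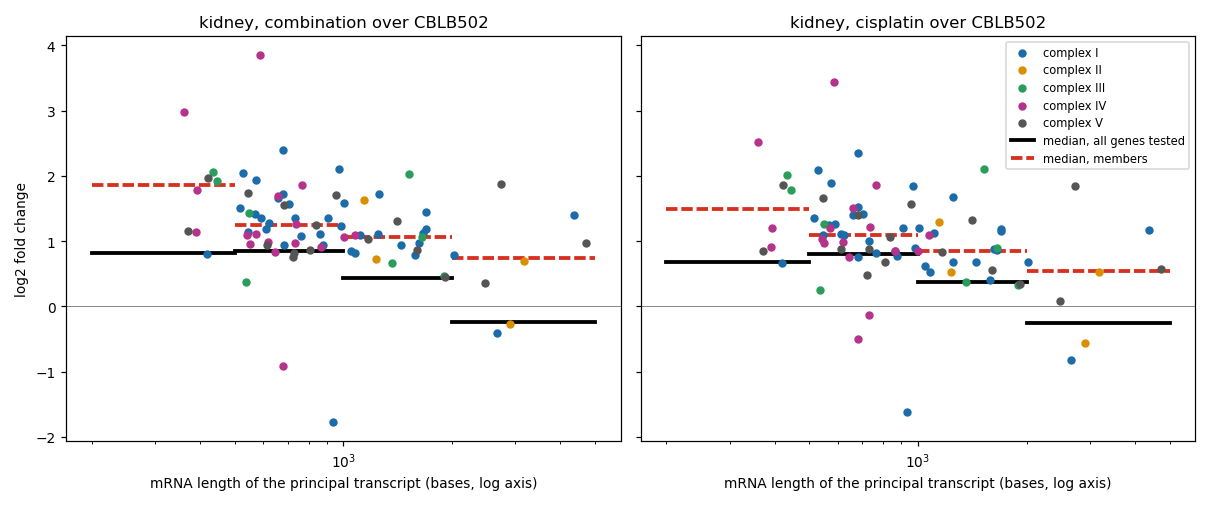
Log2 fold change in kidney against mRNA length (log axis, bases) for the combination over CBLB502 and cisplatin over CBLB502, 1 point per member, with medians by length bin in black for all genes and in dashed red for members. Both lines fall beyond 1000 bases, and the members' line stays above that of all genes in every bin.

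In kidney no member was called between the combination and cisplatin alone, against 0.00479% of all tested genes higher and 0% lower, while DESeq2 called 1. The member median was 0.16 on the log2 scale. At 501 to 1000 bases it was 0.15 for members and 0.02 for all genes. Members were measured in the same libraries and are not independent. The cisplatin libraries were uneven, and without cisplatin library 6 edgeR called 4 members, all higher with the combination. Cox7a1, the heart and muscle form of subunit 7a, shows the spread: it was at 26.7, 28.4 and 24.6 CPM with the combination and 6.76, 22.8 and 23.7 CPM with cisplatin, against 7.79, 6.48 and 8.78 CPM with CBLB502. Cisplatin library 4 lay among the CBLB502 libraries and the other two near the combination. Cox7a1 was called over CBLB502 in both arms, at 1.79 ± 0.37 (edgeR adjusted p = 0.00506) with the combination and 1.21 ± 0.37 (adjusted p = 0.0296) with cisplatin. The cisplatin call was lost with only these 2 groups fitted (adjusted p = 0.114), without scaling (0.159), with the length trend removed (0.63) and on leaving out any library of these groups other than cisplatin library 4 (0.0541 to 0.121).

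In liver, 21 members rose with cisplatin alone over CBLB502, and 2 with the combination. The members summed to 9457 ± 336 CPM in combination livers, 11737 ± 1379 CPM in cisplatin livers and 8354 ± 517 CPM in CBLB502 livers (SD, n = 3), ratios of 1.13 and 1.40 over CBLB502 (exact permutation p = 0.1 each, the smallest possible). These sums carry TMM scaling. As an unscaled share of counts, taken as for kidney, members held 1.035% to 1.156% in combination livers and 0.901% to 1.484% in cisplatin livers. CBLB502 livers held 1.158% to 1.309%, so on that share the combination lay below CBLB502 and cisplatin overlapped it. Over CBLB502, cisplatin had 21 of 81 members higher and none lower, where 7.53% of all genes were higher and 4.65% lower; the members' median was 0.43 log2 units and that of all genes -0.06. The combination had 2 of 81 higher, against 2.76% of all genes higher and 3.65% lower, with a median of 0.18. Between the arms, the combination had 9 members lower than cisplatin and none higher, where 2.51% of all genes were lower and 0.952% higher, with a median of -0.18. Short genes at large shifted too. At mRNA lengths of 501 to 1000 bases, 3 of 41 members and 10.9% of genes were lower (medians -0.18 and -0.41). For cisplatin over CBLB502, 10 of 41 members and 20.8% of genes of that length were higher (medians 0.44 and 0.39). At 1001 to 2000 bases those medians were 0.37 and 0.11.

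Ndufa2, an accessory subunit of complex I, stood at 67.4, 65.1 and 58.2 CPM with the combination and 153, 133 and 121 CPM with cisplatin, against 51.3, 44.3 and 47.0 CPM with CBLB502. Cisplatin livers were above all others, at 1.51 ± 0.20 over CBLB502 (edgeR adjusted p = 0.00118), and the combination was below cisplatin at -1.09 ± 0.20 (adjusted p = 0.0161). Cox4i1 was at 369, 368 and 385 CPM with the combination and 615, 635 and 620 CPM with cisplatin, against 286, 270 and 267 CPM with CBLB502. Cisplatin was called over CBLB502 at 1.18 ± 0.18 (edgeR adjusted p = 0.00237), and the combination below cisplatin at -0.74 ± 0.18 (adjusted p = 0.0458). Uqcr10 was at 80.1, 83.5 and 91.9 CPM with the combination and 157, 155 and 178 CPM with cisplatin, against 69.7, 71.1 and 67.9 CPM with CBLB502, with 1.23 ± 0.18 for cisplatin over CBLB502 and -0.94 ± 0.18 for the combination over cisplatin. The other members lower with the combination than with cisplatin were Atp5md (-1.44), Uqcrq (-1.17), Atp5e (-1.12), Uqcr11 (-1.06), Ndufb2 (-0.89) and Ndufb11 (-0.64), so 3 of the 9 belong to complex I, 3 to complex III, 1 to complex IV and 2 to complex V.

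Cisplatin library 3 stood apart in liver. For Ndufb8 the cisplatin libraries were at 106, 131 and 324 CPM, with the combination at 75.1, 70.7 and 76.6 CPM and CBLB502 at 72.4, 72.1 and 66.2 CPM. Its log2 fold change for cisplatin over CBLB502 was 1.41 with that library and 0.76 without it, both called by edgeR (adjusted p = 0.0308 and 0.0211). The call was lost with the length trend removed (0.134), without scaling (0.168), with only these 2 groups fitted (0.0891), with the replicate number as a block (0.0598) and without any 1 CBLB502 library (0.102 to 0.115). Leaving out that library gave 17 members lower and 2 higher with the combination than with cisplatin, leaving out cisplatin library 2 gave 5 lower, and leaving out any combination library gave none. The 21 calls of cisplatin over CBLB502 became 11, 11 and 8 without CBLB502 library 1, 2 and 3, and 10 (1 higher and 9 lower) without scaling, where the median of all genes moved to -0.69 and that of members to -0.20. With the length trend removed 10 were called, 6 of them higher. The 2 members called with the combination over CBLB502 were Atp5d, the delta subunit of the central stalk, at 0.65 ± 0.17 (edgeR adjusted p = 0.0421), and Cox6b2. The Atp5d call was lost without scaling (0.448), without the low-count filter (0.09), with median-of-ratios scaling (0.0555), with the chromosome 1 genes also removed (0.0637), with the replicate number as a block (0.0785) and on leaving out any library of these groups (0.129 to 0.182). Cox6b2 stood at 3.48, 2.55 and 2.51 CPM with the combination and 0.431, 0.590 and 1.48 CPM with cisplatin, against 0.218, 0.130 and 0.277 CPM with CBLB502. The combination lay above both other arms, at 3.76 ± 0.91 over CBLB502 (edgeR adjusted p = 0.032), a call lost without scaling (0.0527), with the replicate number as a block (0.0666) and on leaving out any library of these groups (0.087 to 0.149).

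The effect of the combination over CBLB502 was larger in kidney than in liver for 43 of 84 members and smaller for none, when the difference between organs was itself tested, while 4.29% of all genes had a larger and 2.6% a smaller effect in kidney. The median difference was 0.93 log2 units for members and 0.05 for all genes. Short genes at large shared much of it. Member and all-gene medians were 1.79 and 0.96 up to 500 bases, and 1.01 and 0.88 at 501 to 1000 bases. They were 0.75 and 0.50 at 1001 to 2000 bases, and 0.44 and -0.11 over 2000 bases. The difference between organs was called for 22 of 38 members of complex I, none of complex II, 5 of complex III, 7 of complex IV and 9 of complex V. Ndufb8 had 2.30 ± 0.44 (edgeR adjusted p = 0.00393), Uqcr10 had 1.74 ± 0.26 (adjusted p = 0.000691) and Cox4i1 had 1.39 ± 0.26 (adjusted p = 0.00292). The count fell to 25 without kidney CBLB502 library 4 or 5, to 28 without liver combination library 2, to 15 without scaling and to 5 with the length trend removed. The shares of all genes on these settings are not given here. For cisplatin over CBLB502 the organs differed for 2 members, Cox5a (0.86) and Ndufb3 (0.94), both larger in kidney, against 1.29% of all genes larger and 0.769% smaller. That count was 16 without liver cisplatin library 3, 8 without kidney cisplatin library 6 and 0 or 1 on leaving out any other library of these groups.

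Between the organs themselves, on the common scale, kidney exceeded liver after the combination for 75 of 84 members and fell below it for none, where 22.5% of all genes were higher in kidney and 16.2% lower. After cisplatin it was 44 higher and none lower, against 18.9% and 14.6% of all genes. After CBLB502 it was 7 higher and 1 lower, against 15.8% and 13.2%, and in controls 65 higher and none lower, against 16.3% and 16.1%. The member medians were 1.02 log2 units after the combination, 0.53 after cisplatin, 0.11 after CBLB502 and 1.05 in controls, beside all-gene medians of 0.15, 0.08, 0.11 and 0.04. After CBLB502 the 8 called were Cox4i2, Cox6b2 (3.96), Ndufa12 (0.90), Ndufs1 (0.67), Atp5b (0.62), Cox8a (0.62) and Cox5b (0.40), higher in kidney, and Uqcrq (-1.10), lower in kidney. Without scaling, the CBLB502 comparison called 71 members higher in kidney and none lower, with the median of all genes at 0.97 and of members at 0.97. By median, members thus did not differ from all genes on that setting, for which the share of all genes called is not given here. Each library of that comparison left out in turn gave 2 to 5 calls: 4 without kidney library 4 or 5, 5 without kidney library 6, 2 without liver library 1, and 3 without liver library 2 or 3.

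**Figure D4:**
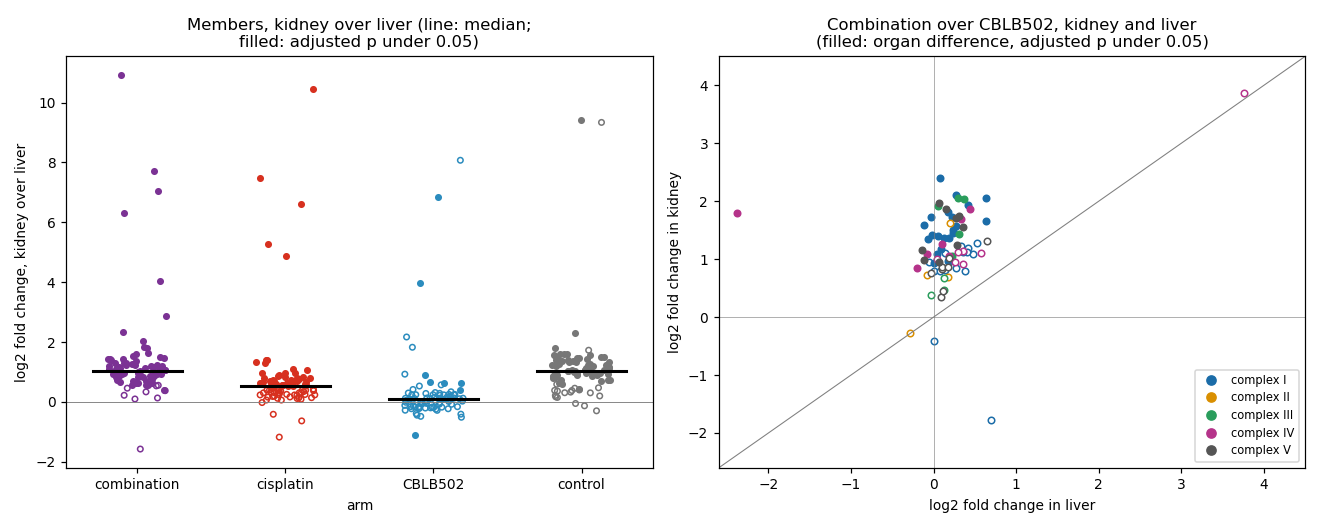
Left, log2 fold change of kidney over liver for each tested member in the combination, cisplatin, CBLB502 and control arms, with a line at the median (1.02, 0.53, 0.11 and 1.05). Right, the log2 fold change of the combination over CBLB502 in kidney against that in liver, with filled points where the difference between organs had an edgeR adjusted p under 0.05 (43 of 84).

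Several subunits of complex IV and the c subunit of complex V come as alternative genes, and levels were compared between them as CPM per kilobase of exon on the common scale (mean ± SD, n = 3). Cox4i1 was at 999.8 ± 101 in combination kidneys, 991 ± 234 in cisplatin kidneys and 294 ± 35.1 in CBLB502 kidneys, while Cox4i2, the form known from lung and oxygen-sensing tissue, was at 0.554, 0.259 and 0.303. Cox4i2 was at 0 in all 12 liver libraries. Cox6a1, the general form of subunit 6a, was at 733 ± 17.3, 773 ± 94.5 and 363 ± 57.2 in the same kidney groups, and its muscle form Cox6a2 was at 0.403, 0.546 and 0.813. Cox4i2 and Cox6a2 stayed below 1 CPM per kilobase on average in all 3 treated kidney arms.

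The general form Cox6b1 was at 438 ± 7.15 with the combination, 433 ± 67.0 with cisplatin and 236 ± 23.4 with CBLB502 in kidney, and Cox6b2 was at 56.4 ± 14.5, 41.8 ± 15.8 and 4.15 ± 1.40. Cox7a2, the general form of subunit 7a, was at 368 ± 16.5, 322 ± 111 and 122.5 ± 19.7, and Cox7a1 at 34.9 ± 2.70, 23.3 ± 12.8 and 10.8 ± 1.43. Cox7a2l was called higher over CBLB502 in kidney, at 1.10 with the combination and 1.09 with cisplatin. Cox7b rose by 1.06 and 0.85, and Cox8a, the general form of subunit 8, by 0.96 and 0.98. Cox8b, the muscle and brown fat form, was erratic: it was at 12.2, 1.34 and 3.84 CPM with the combination and 1.02, 9.06 and 2.63 CPM with cisplatin, against 0.0278, 2.18 and 0 CPM with CBLB502 in kidney. Its values were not called, and in liver it was at 12.9 CPM in control library 1 and at 0 in the other 11 libraries. The brown fat marker Ucp1 was at 47.6 CPM in that control library and at 0 in the other two liver controls. Among the c subunit genes, Atp5g3 was the highest per kilobase in kidney, at 306 ± 17.6 with the combination, 251 ± 34.8 with cisplatin and 194 ± 35.3 with CBLB502, Atp5g2 was at 87.2, 90.5 and 52.9, and Atp5g1 at 47.0, 35.4 and 25.6.

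**Figure D5:**
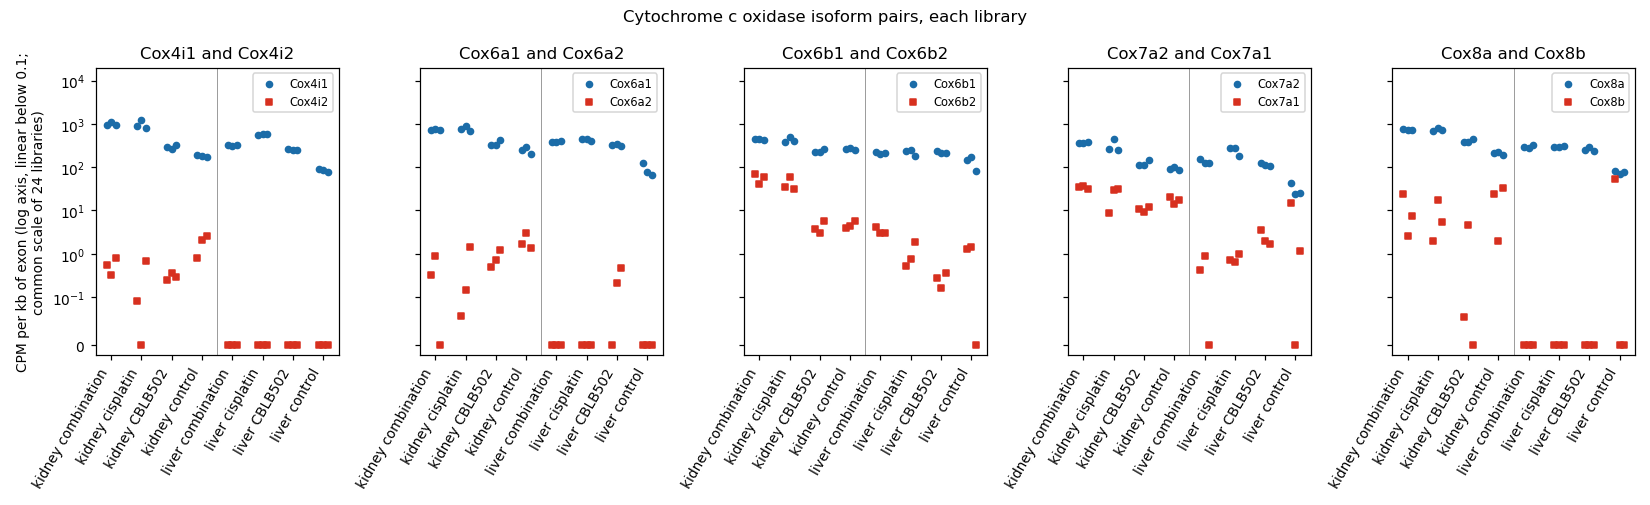
CPM per kilobase of exon (common scale, symmetric log axis) for alternative forms of complex IV subunits 4, 6a, 6b, 7a and 8, with 1 point per library in each organ and arm. In treated kidneys the general forms lie above the tissue-restricted forms, of which Cox6b2 stands highest after the combination (56.4) and cisplatin (41.8).

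Other mitochondrial genes in kidney are given beside the 14.4% of all genes that rose with the combination and the 18% that rose with cisplatin over CBLB502. The shares of all genes that fell were 8.63% and 9.79%. Of 36 mitochondrial ribosomal protein genes, 26 rose with the combination and 28 with cisplatin over CBLB502, with medians of 0.95 and 0.87 log2 units. Of 17 genes for protein import and cristae, 12 and 11 rose. Of 17 tricarboxylic acid cycle genes, 7 and 3 rose, with medians of 0.21 and 0.04, the cisplatin count being near the share of all genes. Of 15 complex I assembly factors, 7 rose with the combination, and with cisplatin 4 rose and 2 fell. Of 34 assembly factors of the other complexes, 15 rose and 1 fell with the combination, and 12 rose and 2 fell with cisplatin. Of 16 regulators of mitochondrial biogenesis, none rose and 1 fell with the combination, and 3 rose and 3 fell with cisplatin, again near the share of all genes that rose. The 13 subunits coded by mitochondrial DNA were tested in a fit that kept that chromosome, for which shares of all genes are not given here. None rose, 5 fell with the combination and 4 with cisplatin, and their medians were -0.66 and -0.60. In liver their medians were -0.25 with the combination and -0.38 with cisplatin. In kidney the nuclear and the mitochondrial-DNA subunits thus had medians of opposite sign.

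Markers of some cell types also differed between these kidney arms, and in bulk tissue fewer cells of a type and less RNA per cell cannot be told apart. Among all genes, 8.63% fell with the combination and 9.79% with cisplatin over CBLB502. Of 12 proximal tubule markers, 2 fell in each comparison, little beyond those shares, with medians of -0.44 for the combination and -1.09 for cisplatin. Their summed level ranged from 18769 to 22269 CPM with the combination and from 7768 to 24618 CPM with cisplatin, against 23442 to 32767 CPM with CBLB502. Of 12 skeletal and heart muscle markers, 11 fell with the combination and 9 with cisplatin, and they summed to 0.443 to 0.751 CPM and 0.560 to 0.865 CPM, against 17.2 to 26.6 CPM with CBLB502. Myh2, Myh1, Myh4, Myl1 and Actc1 were at 0 in all combination kidneys and Ckm, Myh4 and Actc1 in all cisplatin kidneys. All 5 erythroid markers fell in both comparisons, and 8 neutrophil markers summed to 118 to 214 CPM with the combination and 62.2 to 1775 CPM with cisplatin, against 3.79 to 5.87 CPM with CBLB502. Of 8 thick ascending limb and distal tubule markers, 3 fell and 1 rose with the combination and 4 fell with cisplatin. The 12 hepatocyte markers, several of which the kidney also expresses, summed to 11010 to 12441 CPM with the combination, 4662 to 6605 CPM with cisplatin and 2705 to 4428 CPM with CBLB502. In liver, the 12 lymphocyte markers summed to 0.457 to 1.28 CPM with the combination and 0.388 to 2.96 CPM with cisplatin, against 14.9 to 24.8 CPM with CBLB502. The part of these markers in the members' differences was not tested.

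Against untreated controls the treated arms also differ in mitochondrial share, as given above. In kidney, 71 members were higher and 1 lower with the combination (21.2% and 14.9% of all genes), and 64 higher and 2 lower with cisplatin (23.7% and 15.1%), with medians of 1.18 and 1.02. Ndufb8 was at 192, 170 and 172 CPM in kidney controls, close to CBLB502, and stood 2.54 above control with the combination and 2.48 with cisplatin. Ndufa4l2 was lower in both arms, at -2.73 and -2.57, and Uqcrb was lower with cisplatin at -0.45, which turned to 0.10 without scaling. CBLB502 against control was mixed, with 12 members higher and 11 lower (11.4% and 7.77% of all genes), and its median was -0.08. Cox5a (1.03 ± 0.12, edgeR adjusted p = 0.000318) and Atp5g3 (1.17 ± 0.18, adjusted p = 0.00122) were the highest, and Ndufa5, an accessory subunit of complex I, the lowest (-1.18 ± 0.23, adjusted p = 0.00432). Without scaling, 62 were higher than control and none lower, with the median of all genes at 1.08 and of members at 0.96, and 46.9% of all genes were then higher. The count was 15 and 14 without CBLB502 library 4 and 5, and 15 without control library 1 or 3.

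In liver every treated arm was higher than control with TMM scaling. As an unscaled share of counts, taken as for kidney, members held 0.691% to 0.970% in liver controls. This lay below every combination and CBLB502 library but overlapped cisplatin livers, at 0.901% to 1.484%. The combination had 67 of 81 members higher and none lower (23.5% and 16% of all genes), cisplatin 71 and none (25.3% and 17%), and CBLB502 58 and 1 (18.1% and 8.93%), with medians of 1.21, 1.53 and 1.01. Ndufa4 was at 253, 256 and 277 CPM with the combination, 332, 324 and 335 CPM with cisplatin and 196, 200 and 190 CPM with CBLB502, against 48.7, 24.9 and 42.7 CPM in controls. Atp5g3 was at 297, 256 and 283 CPM, 282, 305 and 307 CPM and 300, 292 and 262 CPM in the same treated arms, against 66.0, 35.1 and 49.4 CPM in controls. All treated libraries lay above all controls for both genes. Ndufa12 was the member lower with CBLB502, at -1.06, which turned to 0.08 without scaling. In each organ all 13 subunits coded by mitochondrial DNA were lower than control in every treated arm, where the libraries differ in their mitochondrial share.

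The interaction, the difference between the combination's change from control and the sum of the changes with each agent alone, holds the control libraries, so any shift that all treated arms share against them enters it with a negative sign, and it cannot be told apart from their mitochondrial share. The 13 subunits coded by mitochondrial DNA, lower than control in every treated arm, all had a positive term, with medians of 6.33 in liver and 4.55 in kidney. In liver 56 of 81 members had a negative term and none a positive one, against 14.3% of all genes negative and 6.78% positive, with a median of -1.47. Cox7a2 had -2.74 and Ndufa4 -2.67. In kidney 6 members had a positive term and 3 a negative one, against 2.33% and 5.42% of all genes. Positive were Ndufa5 (1.35), Ndufv3 (1.25), Ndufs8 (1.17), Atp5k (1.15), Ndufb7 (1.10) and Uqcrb (0.82), each lower with CBLB502 than in control with TMM, of which Ndufb7, Atp5k and Uqcrb turned higher without scaling. Negative were Cox5a (-0.94), Cox8a (-0.84) and Atp5g2 (-0.74), each higher with CBLB502 than in control. Without scaling the kidney term was negative for 33 members and positive for none, with the median of all genes at -1.06. The share of all genes with a negative term on that setting is not given here. The kidney count was 2 without CBLB502 library 4 or 5 or combination library 5, 3 without combination library 4 or 6 or control library 3, 4 without cisplatin library 4, 18 without cisplatin library 5 and 20 without cisplatin library 6.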

How the data were processed

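RNA from 24 libraries (Trizol, total RNA, standard Illumina preparation per the labels' protocols) was counted by the authors. The deposited values are raw counts per Ensembl gene, with FPKM columns beside them. Reads were trimmed with cutadapt 1.9 and inspected with FastQC, per the submitters' processing notes. The aligner, counter, genome build, annotation and strand setting are not given in the sources used here, so antisense and near-identical genes cannot be separated. The 24 count columns were used. Of the authors' deposited FPKM columns, 15 served only to check gene length and 9 were not used. Treated kidney columns were tied to a group by name, not to a labelled replicate.

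The 37 genes of the mitochondrial chromosome were removed before library totals were formed. edgeR 4.0.16 (R 4.3.3; filterByExpr, TMM, robust quasi-likelihood fit) was run on the 12 libraries of each organ (18283 genes in liver, 20878 in kidney) and on all 24 (22239 genes) for organ comparisons, with Benjamini-Hochberg adjustment over all genes at 0.05. CPM used the same scaling. Alternatives were DESeq2 1.42.0, other scaling, no low-count filter, only the groups compared, the mitochondrial rows kept or 7 mitochondrial-like chromosome 1 genes also removed, a replicate block, each library left out, and, chosen after seeing the data, a length trend removed per library. Exon and mRNA lengths came from GENCODE vM21. The script was tested on simulated data. The highest share of genes with equal counts in a pair of libraries was 0.524%, so none was a duplicate by that measure.

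The genes named were, in each comparison, all called members where there were at most 10, otherwise the 2 highest and 2 lowest called per complex, plus alternative forms and core subunits throughout. One result that the rule names is not reported here; it remains in all counts. Members and lists were chosen with earlier results of these data known.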

Additional observations from a re-analysis of the deposited data

Results flagged for a closer look

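The results listed here are differences between organs, tested as the kidney effect minus the liver effect on the log2 scale in the fit over both organs (by edgeR, adjusted over all genes, with 3 libraries in each group). For cisplatin over CBLB502 the effect was larger in kidney for Cox5a by 0.86 ± 0.20 (SE; edgeR adjusted p = 0.0256) and for Ndufb3 by 0.94 ± 0.23 (adjusted p = 0.0384). For the combination over CBLB502 it was larger in kidney for Ndufb8 by 2.30 ± 0.44 (edgeR adjusted p = 0.00393), Ndufb4 by 1.81 ± 0.44 and Ndufa11 by 0.80, all of complex I. In complex III the differences were 1.84 ± 0.33 for Uqcr11, 1.74 ± 0.26 for Uqcr10, 1.09 for Uqcrh and 0.81 for Uqcrc1. In complex IV they were 4.14 ± 1.25 for Cox7a1, 1.39 ± 0.26 for Cox4i1, 1.01 for Cox5a and 0.84 for Cox7b. Cox7a1 is near the detection limit in liver. In complex V they were 1.89 for Atp5e, 1.70 for Atp5md, 0.94 for Atp5o and 0.85 for Atp5mpl. Ndufa11 turned to -0.01 with the length trend removed. On that setting no member was called for cisplatin and far fewer for the combination, where fewer were also called without scaling. Leaving out 1 library gave 25 to 39 calls for the combination and 0 to 16 for cisplatin, so single differences listed here depend on the processing.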

How the results depend on the processing

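The kidney calls over CBLB502 stayed within 1.5 times with DESeq2, median-of-ratios scaling, no filter, only these 2 groups and each library left out (69 to 74 for the combination, 61 to 74 for cisplatin). With the length trend removed they were 41 and 38, and without scaling 41 and 30. Shares of all genes called are given for the main fit, and for other settings only where stated, so the counts here lack that comparison. Other counts of called members that moved beyond 1.5 times were as follows. Length trend removed: 40 for kidney CBLB502 over control, 16 for the kidney interaction, 10 for liver cisplatin over CBLB502, 2 for liver combination over cisplatin, 32 for kidney over liver after CBLB502, and 0 and 5 for the organ differences with cisplatin and the combination. Without scaling, in the same order where it moved: 62, 33, 10, 0 and 71, then 82 for kidney over liver after cisplatin, 0 for liver combination over CBLB502 and 15 for the organ difference with the combination. DESeq2: 1 for kidney combination over cisplatin, 19 for the kidney interaction, 36, 6 and 24 for liver cisplatin over CBLB502, combination over CBLB502 and combination over cisplatin, 13 for kidney over liver after CBLB502 and 13 for the organ difference with cisplatin. Only the groups compared: 35 for kidney CBLB502 over control, 23 for liver combination over CBLB502 and 0 for liver combination over cisplatin. With the chromosome 1 genes also removed: 13 for kidney over liver after CBLB502, and 1 each for liver combination over CBLB502 and the organ difference with cisplatin. Median-of-ratios scaling or no filter gave 1 for liver combination over CBLB502, and no filter gave 4 for the organ difference with cisplatin. Leaving out 1 library gave, lowest and highest, for kidney: 14 to 17 (CBLB502 over control), 63 to 72 (cisplatin over control), 68 to 69 (combination over control), 0 to 4 (combination over cisplatin) and 2 to 20 (interaction). For liver it gave 49 to 55, 66 to 72, 58 to 64, 0 to 19 and 49 to 59 in the same order, 8 to 30 for cisplatin over CBLB502 and 0 to 0 for combination over CBLB502. For kidney over liver it gave 69 to 73 (combination), 33 to 50 (cisplatin), 2 to 5 (CBLB502) and 59 to 63 (control), and for the organ differences 25 to 39 (combination) and 0 to 16 (cisplatin). Log2 values that changed sign with the length trend removed were Atp5g2 -0.032, Cox5a -0.050 and Atp5g3 -0.089 (kidney combination over CBLB502), Sdhd -0.048, Cox5a -0.12 and Ndufb5 -0.13 (kidney cisplatin over CBLB502), Atp5k 0.14 (kidney CBLB502 over control) and Ndufa11 -0.014 (organ difference, combination). Without scaling they were, for kidney CBLB502 over control, Ndufb7 0.13, Atp5k 0.18, Uqcrb 0.31, Atp5h 0.53, Cox6b1 0.78, Sdhb 0.80 and Uqcrfs1 0.93. For kidney over liver they were Ndufa4 0.68, Cox7a2l 0.70, Atp5g1 0.70, Cox5a 0.73 and Atp5g2 0.86 after CBLB502, and Cox7a2l 0.69 after cisplatin and 1.09 in controls. The others were Uqcrb -0.14 (kidney interaction), Uqcrb 0.10 (kidney cisplatin over control) and Ndufa12 0.075 (liver CBLB502 over control). The cause was not tested. Same-numbered liver libraries correlated at -0.10 to 0.29 in their deviations, so not every pair was positive and the numbers were not treated as pairs, which does not show that no pairing exists. With the replicate block, liver combination over CBLB502 had 0 calls and combination over cisplatin 4. No paired analysis was possible in kidney because the treated columns carry numbers that are not in the labels. Control libraries held 11.4 to 20.8 M counts off the mitochondrial chromosome, and 2.82 to 10.1 M with the chromosome 1 genes also removed.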
